A study of Mus musculus with 12 samples.

Results

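Nppb, the gene for B-type natriuretic peptide, and the genes for its receptors Npr1, Npr2 and Npr3 were followed across 12 RNA-seq libraries of mouse embryonic fibroblasts. The 4 genes were taken from the 48709 genes of the deposited count table by their names. They were chosen by the count difference of Nppb between siIMP2 and siControl cells without IL-17, so every value of the 4 genes in that comparison is given as a description without a test. The cells came from wild-type C57BL/6 embryos of day 12.5 to 13.5 and were transfected with an siRNA against IMP2 (siIMP2), an RNA-binding protein of the Igf2bp2 gene that reads N6-methyladenosine, or with a control siRNA (siControl). The medium was changed 24 hours later, and cells then received 200 ng/mL of the inflammatory cytokine IL-17 for 8 hours or stayed unstimulated. This gave 4 groups of 3 libraries each: siIMP2, siControl, siIMP2 + IL-17 and siControl + IL-17. In each group replicates 1 and 2 carried the title prefix NA and replicate 3 the prefix RB160, and the labels do not explain these prefixes. The labels do not state whether replicates are separate cultures or embryos, so p-values refer to the spread among these libraries alone, and part of it may be technical.

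Natriuretic peptides are hormones cut from precursor proteins and released mainly by heart muscle cells when the wall is stretched, and BNP is used in the clinic as a marker of heart failure. They bind Npr1 and Npr2, membrane receptors with a guanylyl cyclase domain that makes the second messenger cyclic GMP, which relaxes vessels and restrains fibrosis and hypertrophy. Npr1 answers to the atrial and B-type peptides, Npr2 answers mainly to the C-type peptide, and Npr3 lacks the cyclase and removes all of them from the surroundings by taking them into the cell.

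The promoter of Nppb is shown because GATA and M-CAT elements near the start are known from work on the rat gene, and that of Nppa, the atrial natriuretic peptide gene next to it, because that gene was also higher in the siIMP2 libraries. Both are the 250 bases before the RefSeq start on build GRCm38.p6, plus strand, at chr4:147985650-147985899 for Nppb and chr4:148000472-148000721 for Nppa. Capitals mark GATAA, the core of a GATA factor site, as well as CATTCC, the M-CAT element bound by TEAD factors, and the TATA box letters TATAAA, each on either strand.
Nppb: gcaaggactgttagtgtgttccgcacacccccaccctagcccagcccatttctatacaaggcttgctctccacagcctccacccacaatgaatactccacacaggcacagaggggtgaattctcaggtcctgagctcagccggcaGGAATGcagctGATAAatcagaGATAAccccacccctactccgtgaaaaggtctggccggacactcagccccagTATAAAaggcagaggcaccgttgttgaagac
Nppa: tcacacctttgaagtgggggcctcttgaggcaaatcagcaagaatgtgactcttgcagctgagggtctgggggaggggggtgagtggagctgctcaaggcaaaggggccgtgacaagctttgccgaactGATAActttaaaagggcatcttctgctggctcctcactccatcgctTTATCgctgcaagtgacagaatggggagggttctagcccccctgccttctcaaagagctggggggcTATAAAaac
The Nppb window held GATAA at 94 and 83 bases before the start, CATTCC on the minus strand at 105 bases and TATAAA at 31 bases. Of 32851 promoter windows of 300 bases searched on both strands, 25.4% held GATAA, 5.27% held at least 2 of them, 14.7% held CATTCC and 13.6% held TATAAA. The Nppa window held GATAA at 121 and 75 bases before the start, TATAAA at 9 bases, and no CATTCC. None of the 3 receptor windows held any of these motifs. The letters of the AP-1 site (TGANTCA), of the serum-response CArG box and of the NF-kB site were absent from the windows of all 5 genes. The looser word TTNNGNAA, also searched, occurred 2 times in the Npr3 window, where 13.6% of windows held at least as many. It occurred 1 time in the Nppa window, where 40.7% did, and not in the windows of Nppb, Npr1 and Npr2. These matches are descriptions of letters, not evidence of binding. The authors' annotation starts the Nppb gene 112 bases upstream of the RefSeq start, so the end of the printed Nppb window, with all of its marked motifs, lies in its first exon there.

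The mRNA itself carries a run of AUUUA words in its 3′ untranslated region, a kind of element known to shorten the life of cytokine and growth factor mRNAs. It is shown because few of the genes tested had this word at so high a density. The stretch lies at chr4:147987059-147987088 (GRCm38, plus strand), and capitals mark ATTTA in the DNA letters.
Nppb 3′ UTR: tgatcctATTTATTTATTTATTTAtATTTA
It held 5 overlapping or adjoining ATTTA words in 30 bases, and the whole 227-base region held 6, or 26.4 per kb. Only 0.049% of 12251 genes tested had a density as high, and the median was 1.34 per kb. The high density goes with a short region, since 18.2% of the genes had at least 6 of the words. Npr3 had 14 such words in a 3′ region of 5281 bases (2.65 per kb), and Npr1 and Npr2 had none. The words GGACT and TGGAC were searched in the same regions, and Nppb and Npr2 had 0 of each. Npr1 had 2 GGACT and 0 TGGAC, where 39.5% of the genes had at least as many GGACT. Npr3 had 4 GGACT and 5 TGGAC, where 14.0% and 7.11% of the genes had at least as many. Whether IMP2 or any other protein binds this stretch was not measured here.

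Nppb (ENSMUSG00000029019) lies on chromosome 4 at chr4:147985788-147987205 of mm10, plus strand, with 3 exons of 781 bases in all. Its level per length, in the authors' TPM (transcripts scaled to length and depth), was 125.1, 160.2 and 73.3 in siIMP2 replicates 1, 2 and 3, against 10.9, 8.71 and 7.30 in siControl. With IL-17 the level was 115 (replicate 1), 149 (replicate 2) and 87.8 TPM (replicate 3) in siIMP2, against 15.2, 14.7 and 9.38 TPM in siControl. Every siIMP2 library stood above every siControl library, with no overlap in either state, and the RB160 library was the lowest of its group in all 4 groups. The reads behind these levels were 758 to 1660 counts in siIMP2 and 957 to 1445 in siIMP2 + IL-17, against 73 to 117 in siControl and 109 to 169 in siControl + IL-17.

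Nppb was 14.2 times higher in siIMP2 than in siControl by mean CPM (counts scaled to depth), 35.4 ± 15.7 against 2.49 ± 0.730 (SD, n = 3 each). The fitted log2 fold change was 3.77 ± 0.14 (SE), and it was 3.92 within the NA libraries and 3.33 within the RB160 libraries. In the IL-17-treated cells, which are other libraries, the means were 34.2 ± 12.2 in siIMP2 + IL-17 and 3.65 ± 1.31 CPM in siControl + IL-17 (SD, n = 3 each). There Nppb was higher by 3.24 ± 0.14 on the log2 scale (SE; edgeR quasi-likelihood test, adjusted p = 7.96e-08), with 3.18 within NA and 3.27 within RB160. Since the gene was chosen with these results known, this test is not independent support. Of 13702 genes tested, 9.47% had higher CPM without overlap in siIMP2 than in siControl and 9.24% in siIMP2 + IL-17 than in siControl + IL-17. Set among all tested genes by mean TPM, Nppb lay above 91.3% of them in siIMP2 and above 38.7% in siControl, and above 91.2% in siIMP2 + IL-17 and 46.8% in siControl + IL-17.

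**Figure D1:**
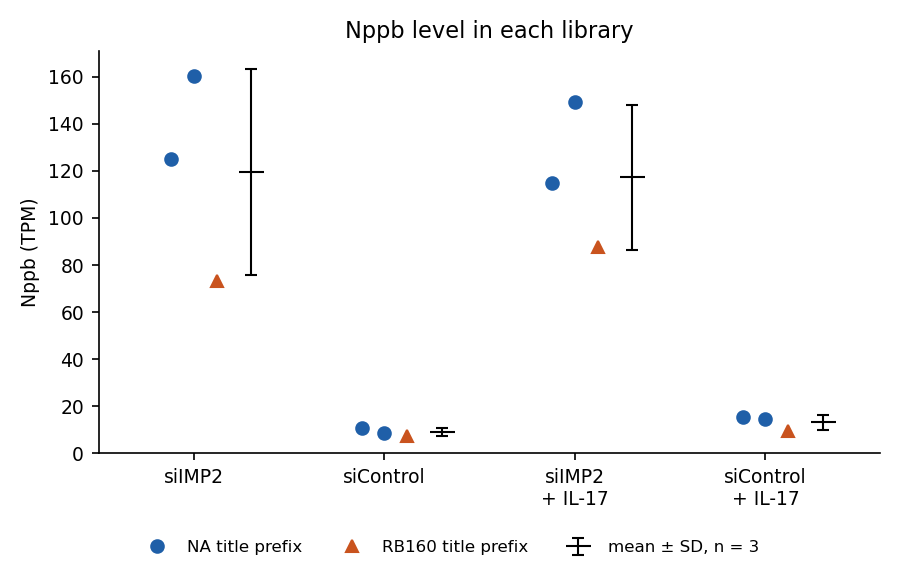
Nppb level in TPM (y axis, linear) in each library of the 4 groups (x axis); circles are libraries with the title prefix NA, triangles the prefix RB160, and bars the mean ± SD of 3 libraries. The 6 siIMP2 libraries with and without IL-17 lie between 73.3 and 160.2 TPM and the 6 siControl libraries between 7.30 and 15.2 TPM.

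IL-17 itself did not move Nppb past the threshold. With control siRNA the gene was 0.53 ± 0.17 higher on the log2 scale with IL-17 (SE; edgeR adjusted p = 0.245), 0.62 within NA and 0.30 within RB160, with an unadjusted p of 0.0073. The libraries overlapped when both prefixes were pooled (9.38 to 15.2 TPM in siControl + IL-17 against 7.30 to 10.9 TPM in siControl), and within each prefix every siControl + IL-17 library was above every siControl library. The share of all genes with such an order within the prefixes was not counted, and so few libraries can fall in that order by chance. With IMP2 siRNA the difference was -0.01 ± 0.11 (SE; edgeR adjusted p = 1.00). The IL-17 effect was smaller with IMP2 siRNA than with control siRNA by -0.53 ± 0.20 on the log2 scale (SE), a difference that reached an unadjusted p of 0.0203 and an adjusted p of 1 in edgeR, so it did not pass. All of these IL-17 comparisons reuse unstimulated libraries by which Nppb was chosen. Their p-values for Nppb are therefore not free of that choice, and no direction is drawn from them. Ordered by mean TPM, the groups ran siIMP2 (119.5 ± 43.7), siIMP2 + IL-17 (117 ± 30.7), siControl + IL-17 (13.1 ± 3.23) and siControl (8.98 ± 1.84, SD, n = 3 each). The upper pair overlapped and did not differ beyond its spread, the lower pair overlapped only across the prefixes and did not pass the adjusted test, and the step between the pairs showed no overlap.

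Reads from the gene that fall outside the exon count moved less than the exon count. The per-library files give all reads of a gene, and the difference from the exon count holds intronic reads and others the headers do not define. In Nppb this difference was 222 of 3999 gene reads in siIMP2, a share of 5.55% (95% exact Clopper-Pearson interval 4.86 to 6.31%), against 46 of 321 in siControl, 14.3% (10.7 to 18.7%). It was 216 of 3804, 5.68% (4.96 to 6.46%), in siIMP2 + IL-17, against 56 of 482, 11.6% (8.90 to 14.8%), in siControl + IL-17. These intervals cover counting error only. Over libraries the share ran from 4.97 to 6.10% in the 6 siIMP2 libraries with and without IL-17, and from 7.63 to 18.2% in the 6 siControl libraries, with no overlap. Of 11213 genes with at least 50 gene reads in every library, 0.187% had a lower share in siIMP2 without overlap. The share has the exon count in its denominator, and Nppb was chosen by that count in the unstimulated libraries. This rarity is therefore not independent of the choice of the gene. Scaled to depth, the reads outside the exon count were 5.00 times higher in siIMP2 than in siControl, where the exon count was 14.2 times higher. With IL-17 they were 4.205 times higher in siIMP2, where the exon count was 9.36 times higher.

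**Figure D2:**
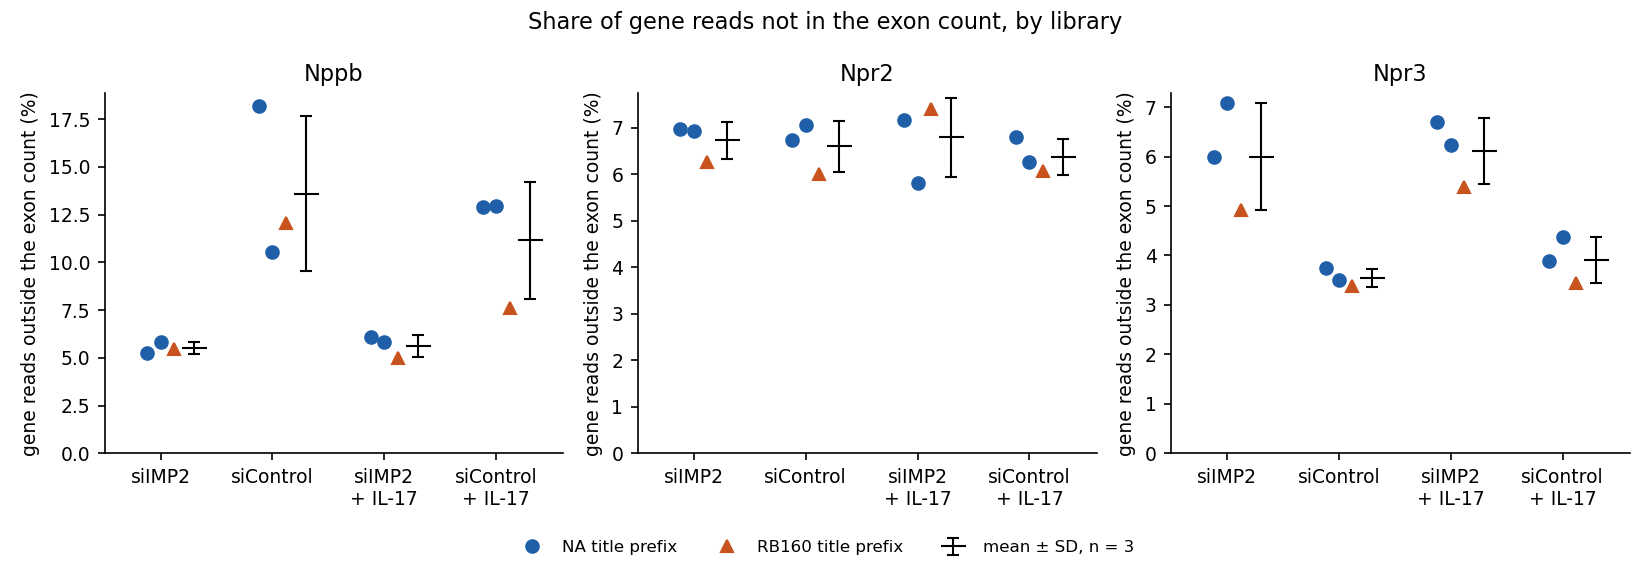
Percent of gene reads that are not in the exon count (y axis, linear) for Nppb, Npr2 and Npr3 in each library of the 4 groups (x axis); symbols as for the title prefixes NA and RB160, bars the mean ± SD of 3 libraries. For Nppb the siIMP2 libraries lie at 4.97 to 6.10% and the siControl libraries at 7.63 to 18.2%, while for Npr3 the siIMP2 libraries lie above the siControl libraries.

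The cyclase receptor Npr1 (ENSMUSG00000027931, chr3:90450591-90465866, minus strand) was weakly expressed in every group. Its level was 0.135, 0.221 and 0.615 TPM in siIMP2 replicates 1, 2 and 3, against 0.214, 0.803 and 0.833 TPM in siControl. With IL-17 it was 0.190, 0.236 and 0.659 TPM in siIMP2, against 0.221, 0.195 and 0.983 TPM in siControl. The groups overlapped, and these levels rest on 9 to 70 counts a library. The fitted log2 difference of siIMP2 from siControl was -1.01 ± 0.44 (SE) and became -0.30 without siControl replicate 2, whose 48 counts stood apart from the 14 of replicate 1. In siIMP2 + IL-17 against siControl + IL-17 it was -0.22 ± 0.44 (SE; edgeR adjusted p = 0.745), 0.09 within NA and -0.48 within RB160. An antisense gene, Gm16048, overlaps Npr1 and had 0 counts in all libraries.

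Npr2 (ENSMUSG00000028469, chr4:43631935-43651244, plus strand), the cyclase receptor of the C-type peptide, was the more abundant cyclase receptor of these cells by TPM. It stood at 32.4, 39.8 and 42.3 TPM in siIMP2 replicates 1, 2 and 3, against 28.6, 29.3 and 39.8 TPM in siControl. With IL-17 it stood at 35.7, 39.4 and 42.8 TPM in siIMP2, against 28.3, 28.4 and 39.0 TPM in siControl. On the TPM scale the groups overlapped through the RB160 libraries, while in CPM they did not, with 61.5 to 71.9 in siIMP2 against 49.8 to 56.6 in siControl and 61.6 to 71.5 in siIMP2 + IL-17 against 49.9 to 53.2 in siControl + IL-17. Of the 13702 genes tested, 9.47% without IL-17 and 9.24% with IL-17 were likewise higher in CPM without overlap. Within each title prefix siIMP2 was the higher. The fitted log2 difference was 0.31 ± 0.08 in siIMP2 over siControl (SE). With IL-17 it was 0.39 ± 0.08 (SE; edgeR adjusted p = 0.00229), 0.47 within NA and 0.21 within RB160. Between 84.9 and 88.2% of the Npr2 gene reads mapped uniquely, and the antisense gene Gm12473 (55 to 139 counts) overlaps it by 9599 bases. The strand setting of the counting is not given in the sources used here, so reads of the pair may be mixed.

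Npr3 (ENSMUSG00000022206, chr15:11839896-11905674, minus strand), the clearance receptor, was lower with IMP2 siRNA. It stood at 10.3, 10.7 and 35.1 TPM in siIMP2 replicates 1, 2 and 3, against 23.9, 25.4 and 57.9 TPM in siControl. With IL-17 it stood at 10.03, 11.03 and 28.2 TPM in siIMP2, against 22.8, 26.0 and 42.7 TPM in siControl. Over all libraries the groups overlapped, since each RB160 library was above both NA libraries of its group, and within each prefix every siIMP2 library was below every siControl library of the same IL-17 state. For Npr2 and Npr3 alike, the share of all genes that kept 1 order within the prefixes was not counted. The fitted log2 difference was -0.97 ± 0.14 in siIMP2 against siControl (SE), a ratio of 0.512. In the IL-17-treated cells it was -0.95 ± 0.14 (SE; edgeR adjusted p = 0.00029), -1.14 within NA and -0.52 within RB160, a ratio of 0.519. These calls of Npr2 and Npr3 needed the title prefix as a term of the fit. Without it the log2 difference of Npr3 in IL-17-treated cells was -0.86 (edgeR adjusted p = 0.407) and that of Npr2 was 0.39 (edgeR adjusted p = 0.0545). The authors' deposited table gave Npr3 a log2 fold change of -0.85 with an FDR p-value of 0.840 for the IMP2 siRNA with IL-17 against the control with IL-17, and Npr2 one of 0.39 with an FDR p-value of 1.00.

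The reads of Npr3 outside the exon count differed less than its exon count. They averaged 2.66 ± 1.13 CPM in siIMP2 and 3.02 ± 1.09 in siControl (SD, n = 3 each), a ratio of 0.879 where the exon count had 0.535. With IL-17 they averaged 2.47 ± 0.827 in siIMP2 and 2.87 ± 0.389 CPM in siControl (SD, n = 3 each), a ratio of 0.861 where the exon count had 0.551. Their share of the gene reads ran from 4.93 to 7.09% in the 6 siIMP2 libraries and from 3.38 to 4.37% in the 6 siControl libraries, without overlap. Such a higher share without overlap occurred in 1.08% of the 11213 genes. The exon count is in the denominator here too, and the unstimulated libraries are those of the comparison by which the genes were chosen. In Npr2 the shares overlapped, at 5.82 to 7.40% in siIMP2 and 6.00 to 7.07% in siControl libraries.

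In siIMP2 + IL-17 against siControl + IL-17, 3 of the 4 genes passed, Nppb and Npr2 higher and Npr3 lower. Of all 13702 genes tested, 33.4% passed there, 16.7% higher and 16.7% lower, and in the unstimulated comparison that chose Nppb 32.9% did. None of the 4 passed for IL-17 with control siRNA, where 0.423% of all genes passed, and Nppb alone had an unadjusted p under 0.05 in edgeR. None passed for IL-17 with IMP2 siRNA, where 0.511% passed and none of the 4 had an unadjusted p under 0.05. DESeq2 also called 0 of the 4 in each of these comparisons. For the receptors, log2 differences with IL-17 lay between -0.63 (Npr1) and -0.04 (Npr2) with control siRNA and between -0.13 (Npr3) and 0.17 (Npr1) with IMP2 siRNA. No gene at all passed in edgeR or DESeq2 for the difference of the IL-17 effects (0% of 13702), where 152 had an unadjusted p under 0.05 in edgeR.

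**Figure D3:**
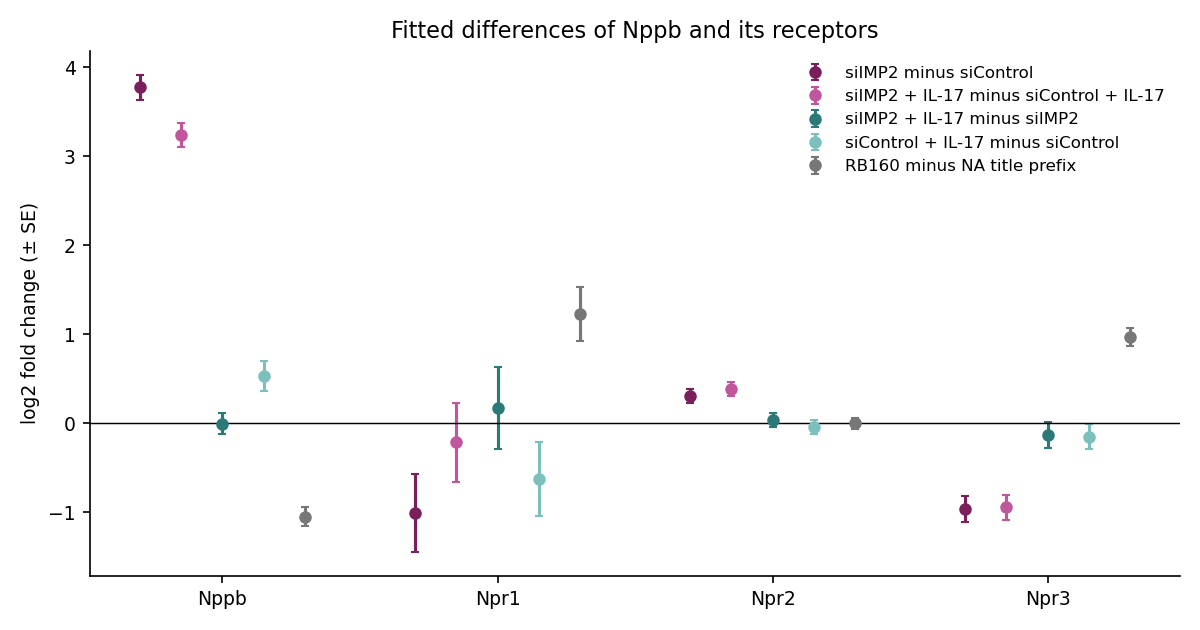
Fitted log2 fold change (y axis, ± SE) of Nppb, Npr1, Npr2 and Npr3 (x axis) in 5 comparisons of the 12 libraries. Nppb is 3.77 and 3.24 higher in the 2 comparisons of siIMP2 with siControl, Npr3 is -0.97 and -0.95, and the IL-17 differences lie near 0 except those of Nppb and Npr1 with control siRNA.

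The title prefixes also differed in 3 of the 4 genes, and for Npr3 by about as much as the siRNA groups. In RB160 libraries against NA libraries, adjusted for group, Nppb was -1.05 ± 0.10 on the log2 scale (SE; edgeR adjusted p = 1.32e-06). Npr1 was 1.23 ± 0.31 higher (SE; edgeR adjusted p = 0.00296) and Npr3 0.97 ± 0.10 higher (SE; edgeR adjusted p = 2.41e-06). Npr2 differed by -0.003 ± 0.06 (SE; edgeR adjusted p = 0.966). Of all genes 69.5% passed in this comparison, so that 3 of 4 members is near the background. In siIMP2 libraries Nppb ran from 73.3 to 87.8 TPM with the prefix RB160 and from 115 to 160.2 TPM with NA. Npr3 ran from 28.2 to 57.9 TPM in all RB160 libraries and from 10.03 to 26.0 TPM in all NA libraries.

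**Figure D4:**
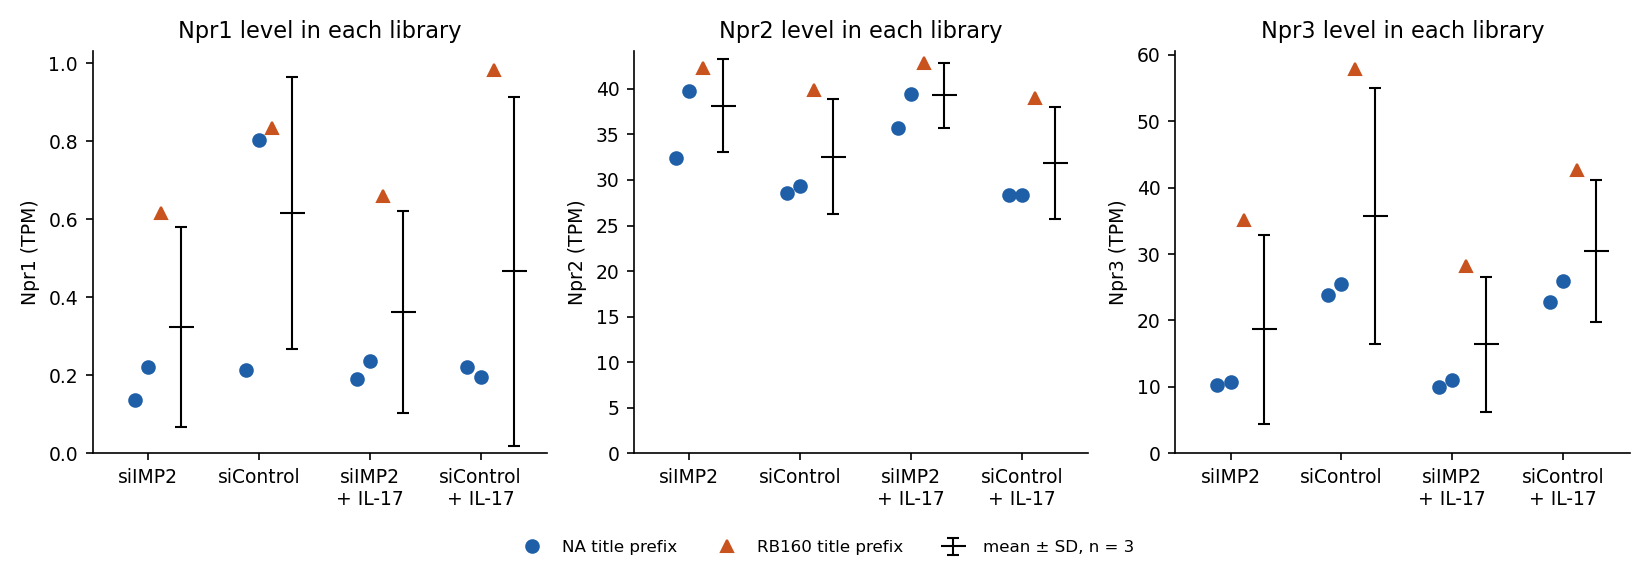
Levels of Npr1, Npr2 and Npr3 in TPM (y axes, linear, with different ranges) in each library of the 4 groups (x axis); circles are libraries with the title prefix NA, triangles RB160, and bars the mean ± SD of 3 libraries. The RB160 library is the highest of its group in every panel, and within a prefix Npr3 is lower in siIMP2 than in siControl.

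The balance of clearance to cyclase receptors followed Npr3. Its ratio to Npr1 and Npr2 together, in TPM, was 0.316, 0.267 and 0.819 in siIMP2 replicates 1, 2 and 3, against 0.830, 0.845 and 1.43 in siControl. With IL-17 it was 0.280, 0.278 and 0.648 in siIMP2, against 0.799, 0.909 and 1.07 in siControl. In each prefix the siIMP2 ratio was below the siControl ratio. IL-17 changed the log2 ratio by -0.20 over the 4 strata of prefix and siRNA (exact two-sided permutation test within strata, p = 0.208, where the smallest possible is 0.0139). Npr1 made up 0.416 to 2.67% of the summed TPM of the cyclase receptors. The ligand stood at 1.73 to 4.02 times the TPM of Npr2 in the 6 siIMP2 libraries and at 0.183 to 0.538 times in the 6 siControl libraries.

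Nppa, which lies 13517 bases downstream of Nppb on the same strand and encodes the atrial peptide, was also higher. It had 50, 79 and 32 counts in siIMP2 replicates 1, 2 and 3, against 12, 10 and 4 in siControl, and 43, 69 and 12 in siIMP2 + IL-17, against 6, 12 and 5 in siControl + IL-17. The siIMP2 libraries without IL-17 all lay above the siControl libraries in counts, and with IL-17 replicate 3 of siIMP2 equalled the highest siControl library. In CPM the groups with IL-17 overlapped, since siIMP2 replicate 3 (0.265 CPM) lay below siControl replicate 2 (0.350 CPM). The log2 difference was 2.69 ± 0.40 in siIMP2 against siControl (SE). With IL-17 it was 2.49 ± 0.41 (SE; edgeR adjusted p = 0.000577), 2.57 within NA and 1.07 within RB160. The other tested genes within 50 kb of Nppb moved far less. In siIMP2 + IL-17 against siControl + IL-17 they were Plod1, a collagen lysyl hydroxylase (0.43 ± 0.09, adjusted p = 0.00222), 2510039O18Rik (0.35 ± 0.06, adjusted p = 0.00104) and the chloride transporter gene Clcn6 (0.13 ± 0.13, adjusted p = 0.476; log2 scale, SE, edgeR). The C-type peptide gene Nppc did not pass the filter on low counts, with 0 to 8 counts a library and 24 over all 12.

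Among the genes within 50 kb of the receptors, Ilf2 and Snapin near Npr1 were lower in siIMP2 + IL-17 than in siControl + IL-17, by -0.20 ± 0.06 and -0.26 ± 0.07 on the log2 scale (SE; edgeR adjusted p = 0.022 and 0.0136). Ints3, Chtop, S100a1 and S100a13 did not pass. Near Npr2, Rgp1 was 0.15 ± 0.05 higher (SE; edgeR adjusted p = 0.0457), and Gm12473, Hint2, Fam221b and Tmem8b did not pass. No gene of the table lies within 50 kb of Npr3.

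Genes that make, cut or remove the peptides were drawn as a list of 11, of which 5 passed the filter. In siIMP2 + IL-17 against siControl + IL-17 3 were higher and 2 lower, where 16.7% of all genes were higher and 16.7% lower. Their median log2 difference was 0.35 against -0.01 over all tested genes. Beside Nppa, the convertase Pcsk6 was higher by 0.69 ± 0.13 (SE; edgeR adjusted p = 0.00126) and Furin, which cuts the BNP precursor, by 0.35 ± 0.08 (adjusted p = 0.00646). Neprilysin (Mme), which degrades natriuretic peptides, was -1.91 ± 0.27 (edgeR adjusted p = 0.000169) and the insulin-degrading enzyme Ide -0.21 ± 0.07 (adjusted p = 0.0313). Without IL-17 the log2 differences of siIMP2 from siControl were 0.67 for Pcsk6, 0.30 for Furin, -1.75 for Mme and -0.18 for Ide. IL-17 called none of the 5 with either siRNA. Corin, the membrane protease of the atrial peptide precursor, had 0 to 2 counts a library.

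Of 10 listed genes of cyclic GMP synthesis other than the receptors, 2 passed the filter and 1 of them, the inducible nitric oxide synthase Nos2, passed a test. Of the soluble guanylyl cyclase subunits the 10 held only Gucy1a2 and Gucy1b2, so the list does not cover this step in full. Nos2 averaged 0.998 ± 0.492 CPM in siIMP2 + IL-17 and 2.18 ± 1.32 in siControl + IL-17 (SD, n = 3 each; log2 difference -1.10 ± 0.38 SE, edgeR adjusted p = 0.0446). It was the only gene of the 6 lists called higher with IL-17, with either siRNA. Without IL-17 it averaged 0 CPM in siIMP2 and 0.0671 ± 0.0611 in siControl (SD, n = 3 each). Nos2 thus passed the filter on low counts only through the IL-17 groups, and its IL-17 calls are given as a description. Of 10 tested genes listed under breakdown or export of cyclic nucleotides, 2 were higher and 3 lower in siIMP2 + IL-17. Their median was 0.02, and 16.7% of all genes were called in each direction. The phosphodiesterase Pde1b was 1.25 ± 0.09 and Pde5a, which is specific for cyclic GMP, 0.60 ± 0.21 (SE; edgeR adjusted p = 8.02e-07 and 0.0415). Pde1a was -0.99 ± 0.12, the exporter Abcc4 -0.84 ± 0.10 and Pde3b -0.61 ± 0.22 (SE; edgeR adjusted p = 3.81e-05, 5.25e-05 and 0.0473). For Pde5a and Pde3b the direction within RB160 was the other one, with -0.13 and 0.16.

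Of 12 tested effectors of cyclic GMP, 5 were higher and 5 lower in siIMP2 + IL-17, with a median of -0.31, where 16.7% of all genes were higher and 16.7% lower. Vasp, an actin regulator that the cyclic GMP kinase phosphorylates, was 0.65 ± 0.05 (SE; edgeR adjusted p = 2.02e-06) and Mrvi1, its partner at the calcium store, 1.05 ± 0.10 (adjusted p = 1.07e-05). Plcb3 was 0.40 ± 0.07 and Ppp1r12a, the targeting subunit of myosin phosphatase, 0.32 ± 0.07 (edgeR adjusted p = 0.00134 and 0.00343). Lower were Gnai3 (-0.56 ± 0.08) and Gnai2 (-0.24 ± 0.06), inhibitory G-protein subunits to which Npr3 couples, with edgeR adjusted p = 0.000255 and 0.00754. Rgs2, a brake on G-protein signalling, was -1.57 ± 0.28 and Rgs4 -1.93 ± 0.36 (SE; edgeR adjusted p = 0.000893 and 0.00135). No effector passed with IL-17 under either siRNA.

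Transcription factors known from natriuretic peptide promoters or their co-activators made a list of 24 tested genes. In siIMP2 + IL-17 against siControl + IL-17 10 of 24 tested were higher and 1 lower, with a median of 0.04, where 16.7% of all genes were higher and 16.7% lower. Serum response factor Srf was 0.66 ± 0.08, the Hippo co-activator Yap1 0.42 ± 0.05 and its DNA-binding partners Tead3 and Tead1 0.47 ± 0.06 and 0.33 ± 0.06 (log2, SE; edgeR adjusted p = 4.37e-05, 7.02e-05, 0.000157 and 0.00112). The AP-1 gene Fos was the lower one, at -1.22 ± 0.17 (SE; edgeR adjusted p = 0.000159). Without IL-17 the log2 differences of siIMP2 from siControl were 0.60 for Srf, 0.47 for Yap1, 0.49 for Tead3, 0.32 for Tead1 and -1.31 for Fos. Gata6 was at -0.13 ± 0.10 (edgeR adjusted p = 0.311); it was named after its value was seen, because the promoter holds GATA motifs.

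Of 17 tested genes that respond to mechanical load together with Nppb in heart and fibroblasts, 12 were higher and 2 lower in siIMP2 + IL-17, where 16.7% of all genes were higher and 16.7% lower. Their median was 0.997 against -0.01 over all genes. The LIM protein gene Fhl1 was 1.23 ± 0.06, endothelin 1 (Edn1) 2.10 ± 0.13, the titin-binding Ankrd1 1.31 ± 0.08 and the matricellular Cyr61 0.83 ± 0.07 (log2, SE; edgeR adjusted p = 9.01e-08, 4.33e-07, 4.33e-07 and 5.52e-06). Lower were osteopontin (Spp1, -0.997 ± 0.15) and Tgfb1 (-0.34 ± 0.10), with edgeR adjusted p = 0.000346 and 0.0215. Tgfb1 was at -0.51 within NA but at 0.02 within RB160, so its direction did not hold in both prefixes. Without IL-17 the log2 differences of siIMP2 from siControl were 1.15 for Fhl1, 1.93 for Edn1, 1.26 for Ankrd1, 0.85 for Cyr61 and -0.97 for Spp1. In RB160 against NA libraries 15 of the 17 were lower, where 34.6% of all genes were, and Nppb was lower too. None of the 24 promoter factors and none of the 17 load-response genes passed with IL-17 under either siRNA, where 0.423% of all genes passed with control and 0.511% with IMP2 siRNA, so that counts of 0 are near the background. The lists were drawn up with earlier results of these data known and support no direction by themselves.

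**Figure D5:**
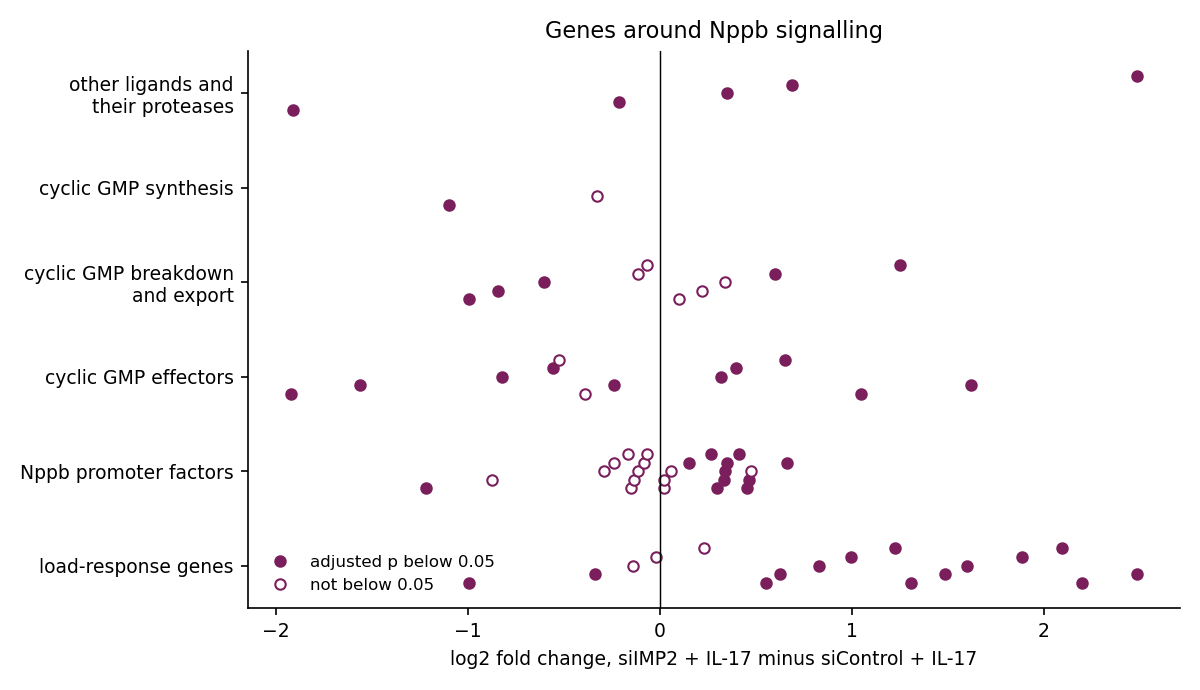
Log2 fold change of siIMP2 + IL-17 over siControl + IL-17 (x axis) for each tested gene of 6 lists (rows); filled points had an edgeR adjusted p below 0.05 and open points did not. Of the load-response genes 12 of 17 lie to the right as filled points, and of the promoter factors 10 of 24.

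Markers of other cells were set beside these values, since in bulk RNA a change in the share of a cell type and a change of RNA per cell cannot be told apart. All 14 fibroblast markers passed the filter on low counts, with summed levels of 10910 to 16780 TPM over the 12 libraries. Most of this sum came from Col1a1 (2890 to 6013 TPM), Vim (2916 to 4742 TPM) and Fn1 (2548 to 3911 TPM). Other markers of the list were low in some libraries, among them Lum (0 to 11.5 TPM), Thy1 (0.135 to 9.09 TPM), Pdgfra (0.796 to 48.0 TPM) and Dcn (0.655 to 98.5 TPM). Heart muscle markers summed to 19.0 to 27.1 TPM in siIMP2 and 9.32 to 20.1 TPM in siControl, and to 22.7 to 27.6 TPM in siIMP2 + IL-17 and 9.29 to 17.4 TPM in siControl + IL-17. Of these 14 markers 10, among them Myh6, Myh7, Tnni3, Nkx2-5 and Ryr2, stayed below 1 TPM in every library, and none was at 0 in all of them. Smooth muscle markers, 8 of 9 past the filter on low counts, summed to 19890 to 29790 TPM in siIMP2 and 10340 to 15710 TPM in siControl, and to 16530 to 27860 TPM in siIMP2 + IL-17 and 8099 to 14950 TPM in siControl + IL-17. Most of these sums came from Acta2 (5071 to 18900 TPM) and Tagln (2681 to 8448 TPM), whereas Myh11 (0.117 to 1.86 TPM) and Des (0.358 to 1.25 TPM) were near the floor and Myocd (at most 0.112 TPM) did not pass the filter. Both muscle sums lay higher in siIMP2 than in siControl, as Nppb did, with an overlap for heart muscle without IL-17. With control siRNA the ranges with and without IL-17 overlapped for both sums, with lower ends of 9.29 and 9.32 TPM for heart muscle. Without IL-17, epithelial markers summed to 119.7 to 288.9 TPM in siIMP2 and 72.7 to 180.8 TPM in siControl. Most of the epithelial sum came from Krt19 (65.7 to 286.1 TPM over the 12 libraries). Epcam, Cldn4, Cldn7 and Esrp1, 4 of the 8 epithelial markers, stayed below 1 TPM in every library. Chondrocyte markers summed to 59.9 to 185.5 TPM in siIMP2 and 87.3 to 333.3 TPM in siControl without IL-17. Most of that sum came from Col2a1 (42.2 to 350.9 TPM over the 12 libraries), and 5 of the 9 chondrocyte markers stayed below 1 TPM in every library. The remaining lists are not given here, and the part of any list in the Nppb level was not tested. Igf2bp2, the target of the siRNA, had 18.6 to 24.6 CPM in siIMP2 and 134 to 168 in siControl, and 18.4 to 28.2 in siIMP2 + IL-17 and 139 to 166 in siControl + IL-17. Total counts ran from 33841054 to 44433699 a library, and the first principal component held 62.1% of the variance.

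Over the 12 libraries, with the mean of each title prefix removed, Nppb and Npr2 varied together (Pearson r = 0.905) and Nppb and Npr3 oppositely (r = -0.946), while Npr1 was looser (r = -0.51 with Nppb). These values mostly restate the siRNA groups, and 6.97% of all genes correlated higher with Nppb than Npr2 did. The genes most like Nppb in this sense were the kinase gene Mark3 (r = 0.993), Arhgef2, a microtubule-bound activator of RhoA (0.993), Tagln2 (0.993), Tmem70 (0.992) and Gne (0.992), whose log2 differences in siIMP2 against siControl ran from 0.45 to 0.71, far below that of Nppb. Most like Npr3 were Abhd12 (0.990), Thbs3 (0.990), Pspc1, Prdm4 and Hadh, and most like Npr2 were Creld1 (0.992), Cdk5rap3, Pbxip1, Ctsa and Pcyox1l. Most like Npr1 were Clpb (0.912), Tyro3, Pidd1, Phb and Mss51. The correlations are over libraries that share siRNA, IL-17 state and depth, and are given without a test.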

How the data were processed

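Paired and trimmed reads were mapped to mm10, per the submitters' processing notes and the file headers; the aligner, the counter and the strand setting are not stated there. The authors deposited raw counts of exon reads per gene, TPM and RPKM values, gene and exon lengths, all reads and uniquely mapped reads per gene, and a table of their own comparisons with log2 fold changes, ratios (fold changes), p-values and FDR p-values. The authors also deposited a normalised score per gene, headed CPM in the file headers, whose sums differed between libraries; it was not used.

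Counts were fitted with edgeR 4.0.16 (R 4.3.3), quasi-likelihood, TMM factors, 1 model with group and title prefix, 13702 genes passing filterByExpr (minimum count 10, total 15); all 4 members passed. P-values were Benjamini-Hochberg adjusted over these genes, with a threshold of 0.05. CPM values use TMM-scaled library sizes. The fit was tested on simulated data. No replicate pair agreed within sampling noise (chi-square per degree of freedom 9.11 to 233). DESeq2 1.42.0, other filters and left-out libraries were alternatives. The 4 genes, the lists and the tests were chosen with earlier results of these data known. Named were the members, up to 4 genes of smallest p per direction and list, tested genes within 50 kb, and the 5 genes most like each member. Promoters were credited to RefSeq (GRCm38.p6, 4 of 4 members matched) and transcripts to the GENCODE annotation.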

Additional observations from a re-analysis of the deposited data

Results flagged for a closer look

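Npr1 in siControl replicate 2 stood far from the other NA libraries. Its 1.433 CPM (48 counts) were the highest of 8, the gap to the next library was 0.85 of the whole range, and the other 7 lay between 0.263 and 0.439. That is past the Dixon limit for 8 values, and chance flags about 1 group in 20. Here 8 checks were made, the highest and the lowest library of each of the 4 genes, and the 8 libraries come from 4 treatment groups, so a flag by chance is likelier than that. The 4 RB160 libraries had 0.922 to 1.38 CPM. Without this library the log2 difference of Npr1 in siIMP2 against siControl was -0.30, against -1.01 with it.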

How the results depend on the processing

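No paired analysis was possible because the labels give no replicate numbers shared between groups; the numbers used here only name libraries, and the title prefix, which the groups do share, was a term of the fit. The Nppb differences of siIMP2 from siControl kept their direction under every alternative, at 3.64 to 3.89 without 1 library and 3.17 to 3.35 with IL-17. The edgeR adjusted p with IL-17 was at most 1.58e-06 without 1 library and highest with no title prefix term (0.00974). With no title prefix term, Npr2 (0.39, adjusted p = 0.0545) and Npr3 (-0.86, adjusted p = 0.407) in IL-17-treated cells no longer passed, and the genes called fell to 321 and 327 for the siRNA and 1 and 2 for IL-17 with control and IMP2 siRNA; the cause was not tested. The IL-17 counts, 58 with control and 70 with IMP2 siRNA, were 191 and 166 by DESeq2, 221 and 179 with no filter beyond 1 count, and 100 and 349 with only the groups compared, and 46 with IMP2 siRNA in NA libraries alone. Without 1 library they were 9 to 98 and 13 to 117. Moves of over 1.5 times came with control siRNA from leaving out siControl + IL-17 replicates 1, 2 and 3 (18, 18 and 9), siIMP2 + IL-17 replicates 1, 2 and 3 (32, 37 and 98), siIMP2 replicates 1 and 2 (34 and 30) and siControl replicates 2 and 3 (23 and 10), and with IMP2 siRNA from leaving out siIMP2 + IL-17 replicates 1 and 3 (27 and 17), siIMP2 replicates 1, 2 and 3 (25, 18 and 13) and siControl replicate 3 (117). Signs turned only in differences that did not pass: Npr2 in RB160 against NA (0.00566 with no filter, 0.000609 at 1 CPM in 3 libraries), Npr3 with IL-17 and IMP2 siRNA (0.00321 in NA libraries) and Npr1 in siIMP2 + IL-17 against siControl + IL-17 (0.0913 in NA libraries). Without 1 library the ranges that crossed 0 were, for IL-17 with control siRNA, Npr1 -1.08 to 0.0689, Npr2 -0.0882 to 0.0379 and Npr3 -0.30 to 0.0618; for IL-17 with IMP2 siRNA, Nppb -0.12 to 0.13, Npr2 -0.0184 to 0.12 and Npr3 -0.21 to 0.0931; for the difference of the IL-17 effects, Npr2 -0.0039 to 0.16 and Npr3 -0.19 to 0.26; for siIMP2 + IL-17 against siControl + IL-17, Npr1 -0.35 to 0.23; and for RB160 against NA, Npr2 -0.0601 to 0.0493. Npr1 in siIMP2 against siControl ran from -1.46 to -0.30. Uniquely mapped gene reads, an alternative chosen after seeing the data, changed no call of a member. Npr1 rests on 9 to 70 counts a library, which limits its precision, and 3 libraries a group limit every test.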
